A study of Mus musculus with 27 samples.

Results

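The genes described here are the nuclear genes of the mitochondrial respiratory chain and ATP synthase in mouse embryonic stem cells. They were chosen by name, as every row of the deposited table whose symbol starts with Ndufa, Ndufb, Ndufc, Ndufs, Ndufv, Uqcr, Cox4 to Cox8 or Atp5, or is Sdha, Sdhb, Sdhc or Sdhd, leaving out 7 pseudogene names that contain -ps. This gave 92 of 53379 rows. Complex I contributed 36 subunit genes (16 of the matrix arm and 20 of the membrane arm) and 8 assembly factors, complex II 4 genes, complex III 8, complex IV 20 and complex V 16. Cox8b was at 0 in all 27 libraries, and the other 91 passed the filter on low values and were tested.

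The study measured polyadenylated RNA in 3 fractions of the E14 embryonic stem cell line: cytoplasm (CY), nucleoplasm (NP) and chromatin (CH). Cells grown on gelatin with LIF were transfected with an siRNA against eGFP (siGFP, the control), against Ptbp1 (siPTBP1), or against Ptbp1 and Ptbp2 together (siPTBP1_PTBP2). A second transfection followed after 24 h, and cells were taken 48 h after the first. Each of the 9 groups of fraction and siRNA had 3 biological replicates, all from this 1 line. Values are TPM, the usual unit of transcript abundance adjusted for transcript length, and are shares of a library, so a higher value in a fraction is a larger share of that fraction's RNA and not more molecules per cell.

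The respiratory chain sits in the inner mitochondrial membrane. Complex I (NADH dehydrogenase) and complex II (succinate dehydrogenase) feed electrons to ubiquinone, complex III (cytochrome bc1) passes them to cytochrome c, and complex IV (cytochrome c oxidase) hands them to oxygen. Complex V is the ATP synthase that uses the proton gradient. A few core subunits are encoded by mitochondrial DNA, and the subunits described here are made from nuclear genes, exported as mRNA, translated in the cytoplasm and imported. The stem cell line served the study of the splicing repressor PTBP1 and introns that stay in nuclear transcripts, and gene-level TPM do not tell spliced from unspliced transcripts.

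Promoter sequence was found for 74 of the 92 members in a RefSeq table of windows of 300 bases around gene starts (GRCm38.p6). Windows were searched on both strands for motifs of 3 factors known from respiratory genes. The NRF1 motif, spelled by the capitals of the Atp5k stretch, was in 7 of the 74 members (9.46%), against 1.07% of 27025 genes. These are all genes of the promoter table, whether or not they were expressed in these cells. The ETS and GABPA motif CCGGAAG was in 18 (24.3%), against 9.93% of genes, and the YY1 motif ATGGCGGC in 7 (9.46%), against 2.61%. At least 1 of the 3 was in 29 members (39.2%) and in 12.8% of genes. The stretches printed next belong to Cox6a1, the member with the highest nucleoplasm-to-cytoplasm difference, and to Atp5e and Atp5k, the members with the lowest chromatin-to-cytoplasm differences. Each runs 5′ to 3′ on the gene's strand, with the motif found in it in capitals (CTTCCGG is CCGGAAG read on the other strand).
Cox6a1, chr5:115348959-115349108, minus strand: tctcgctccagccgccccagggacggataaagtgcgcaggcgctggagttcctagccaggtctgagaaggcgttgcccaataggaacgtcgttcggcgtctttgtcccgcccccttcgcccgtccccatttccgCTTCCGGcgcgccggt
Atp5e, chr2:174464102-174464251, minus strand: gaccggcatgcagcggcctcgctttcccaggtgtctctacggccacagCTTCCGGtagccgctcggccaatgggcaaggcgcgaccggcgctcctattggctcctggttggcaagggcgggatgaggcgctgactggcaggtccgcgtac
Atp5k, chr5:108434400-108434549, minus strand: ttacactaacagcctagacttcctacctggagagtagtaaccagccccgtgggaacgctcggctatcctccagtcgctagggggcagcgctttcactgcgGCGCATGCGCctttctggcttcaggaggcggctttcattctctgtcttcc
Cox6a1 and Atp5e thus hold the same letters. Outside the printed stretches, the full window of Cox6a1 also held the NRF1 motif and that of Atp5k the ETS and GABPA motif.

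Ptbp1 checked the siRNA. Its level in CY was 549 ± 56.2 TPM (SD, n = 3) in siGFP, 123 ± 18.1 TPM in siPTBP1 and 142 ± 50.1 TPM in siPTBP1_PTBP2, and in CH it was 514 ± 156, 243 ± 50.7 and 287 ± 61.8 TPM. In both fractions the siGFP libraries lay above all others, and both knockdowns overlapped each other. Ptbp2 was at 11.3 ± 6.76, 13.9 ± 8.99 and 5.43 ± 3.45 TPM in CY. In NP it was at 15.8 ± 6.97, 13.3 ± 6.62 and 9.12 ± 4.85 TPM, and in CH at 67.5 ± 38.7, 57.5 ± 29.6 and 54.9 ± 27.3 TPM. Its groups overlapped in each fraction. The lowest and highest CY libraries were 3.52 and 15.45 TPM in siGFP and 1.45 and 7.55 TPM in siPTBP1_PTBP2. In NP they were 7.81 and 20.33, and 3.56 and 12.49 TPM. Ptbp2 was thus lower on average in siPTBP1_PTBP2 in CY and NP, while CH means differed little against their spread. No test of Ptbp2 is given here. All 8 stem cell markers were above 0 in every library, with sums of 2927 to 4098 TPM across CY, 2218 to 3844 across NP and 967 to 2131 across CH. The summed level of 6 fibroblast markers lay between 6.68 and 17.1 TPM for CY, 31.0 and 74.2 for NP, and 48.8 and 155 for CH, with Dcn and Postn at no more than 0.91 and 0.95 TPM. For 6 muscle markers the sum lay between 7.80 and 15.0, 8.40 and 21.3, and 66.7 and 133 TPM, mostly Tnni3 (up to 118 TPM), with Myog at no more than 0.27 TPM. Neural markers (4 genes) summed to 182 to 299 TPM across CY libraries, 95.6 to 156 across NP and 98.4 to 218 across CH, and primitive endoderm markers (4 genes) to no more than 7.25 TPM in any library. Of 13 genes for proteins of the endoplasmic reticulum (chaperones and translocon) or secreted through it, all 13 were higher in NP than CY in siGFP (median 3.42) and all 13 in CH (median 2.80), with sums of 413 to 1025 TPM across CY, 4911 to 8865 across NP and 3203 to 4769 across CH libraries. Nuclear noncoding RNAs summed to 36.9 to 69.0 TPM across CY, 148 to 369 across NP and 1306 to 3254 across CH libraries. Mitochondrially encoded genes took 9.31 to 22.5% of all TPM in NP, 0.511 to 1.68% in CH and 0.0416 to 0.111% in CY. The part of any of these lists in the differences between fractions was not tested. Because TPM are shares, these genes lower every other value in NP, and the fraction comparisons are therefore also given after rescaling without them. Members made up 1.78 to 1.95% of a CY library, 1.84 to 2.49% of an NP library and 0.687 to 1.51% of a CH library. Replicate 1 stood apart: 31 members were higher and 9 lower in replicate 1 than in the mean of the other replicates in all 9 groups, against 7.49% and 24.5% of all genes. In CH the median of the 91 members was 0.40, 0.83 and 0.36 (log2) higher in replicate 1 (siGFP, siPTBP1 and siPTBP1_PTBP2), where the median of all genes was at −0.28, −0.21 and −0.22.

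Transcript levels in the cytoplasm of the control are given first. They are not amounts of protein in the complexes. In siGFP CY the highest member was Atp5b, the catalytic beta subunit of ATP synthase, at 1438 TPM, and the median of complex V members was 377.6 TPM. Complex I subunits had a median of 105.5 TPM, from Ndufb4 (21.4 ± 0.839 TPM, n = 3) to Ndufa7 (364.8 ± 26.99 TPM). The 8 complex I assembly factors, which build the complex and leave it, had a median of 19.5 TPM, from Ndufaf4 (7.78 TPM) to Ndufaf8 (54.9 TPM). Complex II ran from Sdha (109 TPM) to Sdhc (221 TPM), and complex III from Uqcrc2 (110 TPM) to Uqcr10 (566 TPM). Complex IV ran from Cox6a2 (0.33 TPM) to Cox4i1 (583 TPM).

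Several subunits of complex IV exist as a common form and as paralogues known from muscle, lung or testis. The common form was higher than the tissue-restricted ones in each set in siGFP CY. Cox4i1, the largest nuclear-encoded subunit, was at 583 ± 80.1 TPM (SD, n = 3) and its hypoxia- and lung-associated paralogue Cox4i2 at 4.61 ± 1.88 TPM. Cox6a1 was at 95.6 ± 20.7 TPM and the muscle form Cox6a2 at 0.33 ± 0.24 TPM. Cox6b1 was at 248 ± 12.5 TPM and the testis form Cox6b2 at 19.4 ± 3.64 TPM. In the plot of paralogues these pairs stand apart in all 3 fractions of siGFP, with the smallest gap between Cox6b1 and Cox6b2 in chromatin. Cox7b was at 87.7 ± 21.5 TPM and the testis form Cox7b2 at 1.06 ± 0.812 TPM. Cox8a was at 359 ± 18.1 TPM, Cox8c at 1.10 ± 0.272 TPM, and Cox8b at 0. Ndufa4, once assigned to complex I and now counted with complex IV, was at 215 ± 29.1 TPM and its paralogue Ndufa4l2 at 15.3 ± 8.81 TPM. The Cox7a genes lay closer: Cox7a2 was at 159.5 ± 4.04 TPM, the heart and muscle form Cox7a1 at 23.4 ± 5.77 TPM, and Cox7a2l, which joins complexes III and IV into supercomplexes, at 221 ± 17.6 TPM. Over all 27 libraries Cox4i2 lay between 0.34 and 6.72 TPM, and Cox6a2, Cox7b2 and Cox8c never exceeded 1.76, 1.60 and 1.41 TPM.

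**Figure D1:**
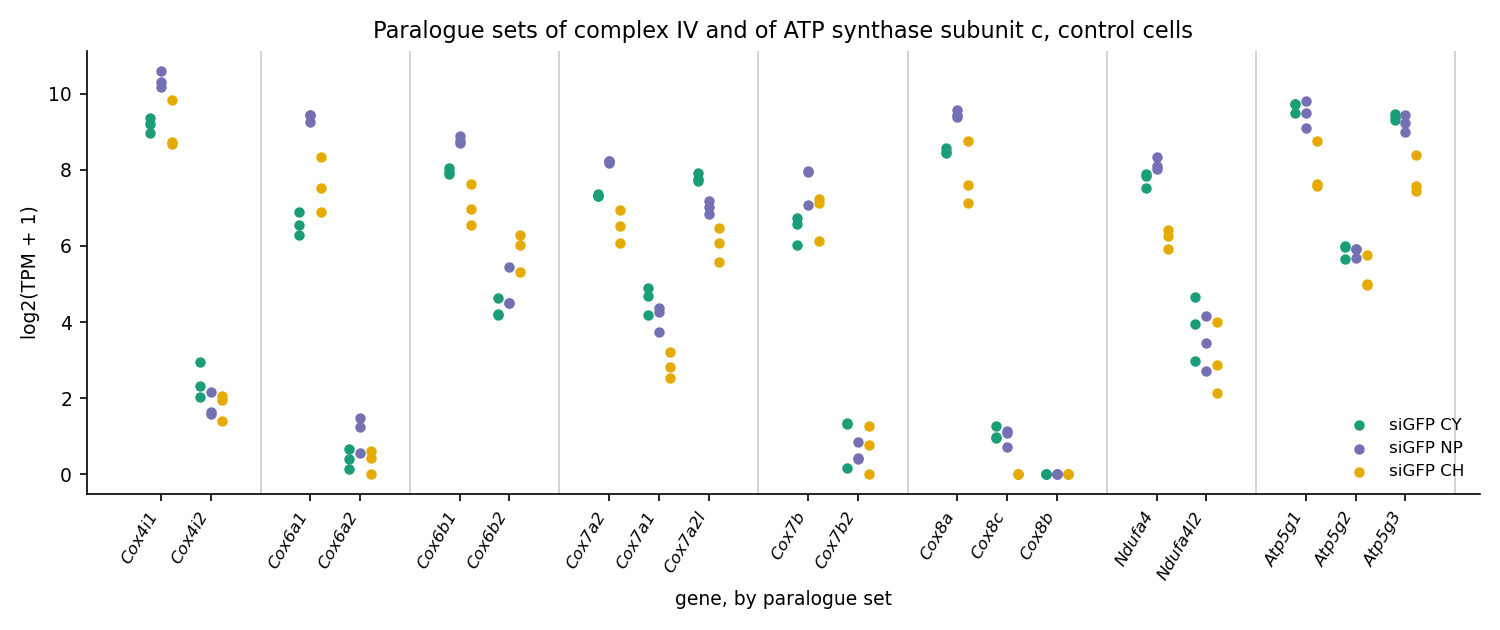
Levels of the paralogue sets in siGFP as log2(TPM+1) (vertical axis), with 3 libraries each for cytoplasm, nucleoplasm and chromatin shown as points. Cox4i1, Cox6a1 and Cox8a lie above their paralogues in every fraction, and Cox7a1, Cox7a2 and Cox7a2l lie closer together.

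Subunit c, which forms the rotating ring of ATP synthase, is made from 3 genes with different targeting sequences and the same mature protein. In siGFP CY, Atp5g1 was at 801 ± 75.6 TPM (SD, n = 3), Atp5g3 at 666 ± 36.0 TPM and Atp5g2 at 58.0 ± 7.63 TPM. The last 90 coding bases of each (GENCODE M21, GRCm38) are printed to show how far reads can tell the genes apart, with the 24 positions at which the 3 genes are not all alike in capitals.
Atp5g1: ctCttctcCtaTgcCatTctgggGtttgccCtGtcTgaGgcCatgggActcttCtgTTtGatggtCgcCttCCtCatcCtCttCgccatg
Atp5g2: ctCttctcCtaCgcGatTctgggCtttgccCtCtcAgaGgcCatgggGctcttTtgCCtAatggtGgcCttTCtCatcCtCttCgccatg
Atp5g3: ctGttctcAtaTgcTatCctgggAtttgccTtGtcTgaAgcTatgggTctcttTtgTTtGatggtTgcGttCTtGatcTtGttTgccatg
Over the last 225 coding bases Atp5g1 and Atp5g2 were 84.9% identical, Atp5g1 and Atp5g3 80.0%, and Atp5g2 and Atp5g3 78.7%. Only short runs shared by all 3 genes lie between the capitals of the printed bases. Whether reads were split between the genes was not tested, and their separate levels carry that uncertainty.

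The first comparison asks which members took a larger or smaller share of nucleoplasmic than of cytoplasmic polyadenylated RNA in the control. In siGFP, the common subunits of complex IV were the group with the highest median (0.82 on the log2(TPM+1) scale, 11 of 11 positive), and complex V subunits had a median of −0.18 (4 of 15 positive). By limma with Benjamini-Hochberg adjustment over 20611 genes, 9 of 91 members were higher in NP (12.3% of all genes tested) and 2 lower (0.461%), with 80 not called. The 9 were Cox6a1, Cox4i1, Cox7a2, Cox6c, Cox7c, Cox6a2, Ndufb9, Ndufb3 and Ndufa1, and the 2 were Ndufb10 and Atp5h. Of the 9, Cox6a2 passed the filter on low values through NP libraries alone (5 of 9), and 8 were higher without it. The median of all 91 was 0.02, from −0.85 to 2.80, against 0.15 for all genes tested. The share of members called higher was thus close to the background.

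Cox6a1 encodes subunit VIa of cytochrome oxidase, an accessory subunit at the dimer interface (ENSMUSG00000041697, chr5:115345642-115348981, minus strand). Its level in siGFP CY was 92.1, 117.79 and 76.89 TPM in replicates 1 to 3. In NP it was 689.85, 690.69 and 605.38 TPM, and in CH 324.53, 182.13 and 116.77 TPM. Every nucleoplasmic library was far above every other, and chromatin overlapped cytoplasm narrowly, through 116.77 against 117.79 TPM. The difference NP − CY was 2.80 (SE 0.37, limma adjusted p = 1.19e-05), a 6.92-fold ratio of means. It was called under every setting tried. Over all 27 libraries Cox6a1 ranged from 71.97 to 1092.76 TPM.

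Cox4i1 (chr8:120668222-120674207) was at 660.89, 586.54 and 500.74 TPM in siGFP CY, 1548.9, 1265.15 and 1164.12 TPM in NP and 914.11, 424.85 and 411.34 TPM in CH. All nucleoplasmic libraries were above all others, and replicate 1 was the highest in each fraction. The difference NP − CY was 1.18 (SE 0.36, adjusted p = 0.0303, limma). Leaving out any 1 of the 6 libraries ended this call (adjusted p from 0.0501 to 0.112). Cox4i1 overlaps Emc8 on the other strand and an unnamed gene model on its own, so its reads are less certain. Cox7a2, a subunit of the same enzyme, was at 157.81, 156.49 and 164.06 TPM in CY, 301.34, 289.67 and 298.16 TPM in NP and 123.06, 91.08 and 66.58 TPM in CH, again without overlap (NP − CY 0.89, SE 0.26, adjusted p = 0.0269). This call too was lost without any 1 of the 6 libraries.

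The other common subunits of complex IV moved less or were less certain. Cox6c (0.80, adjusted p = 0.0242, limma) and Cox7c (0.73, adjusted p = 0.0366) were called higher in NP, and both overlap other gene models. Cox7b (1.23, adjusted p = 0.0799), Cox8a (0.98, adjusted p = 0.137) and Cox6b1 (0.82, adjusted p = 0.0788) were not called, and all 3 were called with the replicate number as a block (adjusted p = 5.59e-06, 0.0154 and 0.00665). Ndufa4 (0.41), Cox5b (0.31) and Cox5a (0.16) were not called. Of the 11 common subunits 9 had no overlap between NP and CY, all in the direction of NP, against 26.7% of all genes. Cox6a2 was called (0.70, adjusted p = 0.0362), but it stayed at or below 1.76 TPM, where 1 TPM is the pseudocount, and its libraries overlapped. Cox7a2l, the supercomplex factor, was at −0.77 (adjusted p = 0.0540, limma) and was called lower with the block (adjusted p = 0.00194).

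In complex I, 3 members rose (12.3% of all genes tested) and 1 fell (0.461%) in NP, all of them accessory subunits of the membrane arm. None of the 16 matrix arm subunits was called, though with the replicate block Ndufs6 and Ndufv3 of that arm were called lower. A difference between the arms was not tested. Ndufb9 (ENSMUSG00000022354) was at 117.9, 107.66 and 98.65 TPM in siGFP CY, 294.54, 269.07 and 236.73 TPM in NP and 119.24, 58.88 and 44.43 TPM in CH. Its nucleoplasmic libraries were above all others (NP − CY 1.29, SE 0.35, adjusted p = 0.0135, limma), and another gene model lies on the same strand. Ndufb3 was at 32.9, 41.13 and 37.61 TPM in CY, 69.4, 80.56 and 72.63 TPM in NP and 22.25, 22.68 and 20.97 TPM in CH. Its 3 fractions did not overlap (NP − CY 0.98, SE 0.25, adjusted p = 0.00922). Ndufb9 and Ndufb3 lost their calls without 1 cytoplasmic library each (replicate 3 and replicate 1, adjusted p = 0.0524 and 0.0537). Ndufa1 was higher in NP as well (0.83, adjusted p = 0.0150).

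The members that fell in NP were Ndufb10 and Atp5h. Ndufb10, also of the membrane arm, was at 161.39, 162.49 and 164.94 TPM in siGFP CY, 110.29, 96.48 and 104.19 TPM in NP and 48.85, 52.34 and 46.0 TPM in CH. Cytoplasm was highest and chromatin lowest, with no overlap (NP − CY −0.65, SE 0.17, adjusted p = 0.0136, limma). Atp5h, subunit d of the peripheral stalk of ATP synthase, was at 603.36, 604.04 and 615.98 TPM in CY, 467.52, 388.21 and 452.79 TPM in NP and 259.52, 261.08 and 273.97 TPM in CH. Its fractions lay in the same order without overlap (NP − CY −0.48, SE 0.16, adjusted p = 0.0498). Both calls were lost after rescaling without mitochondrially encoded genes (adjusted p = 0.0773 and 0.249). Atp5h also lost it without any 1 of the 6 libraries, and Ndufb10 without NP replicate 2 (adjusted p = 0.0707).

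**Figure D2:**
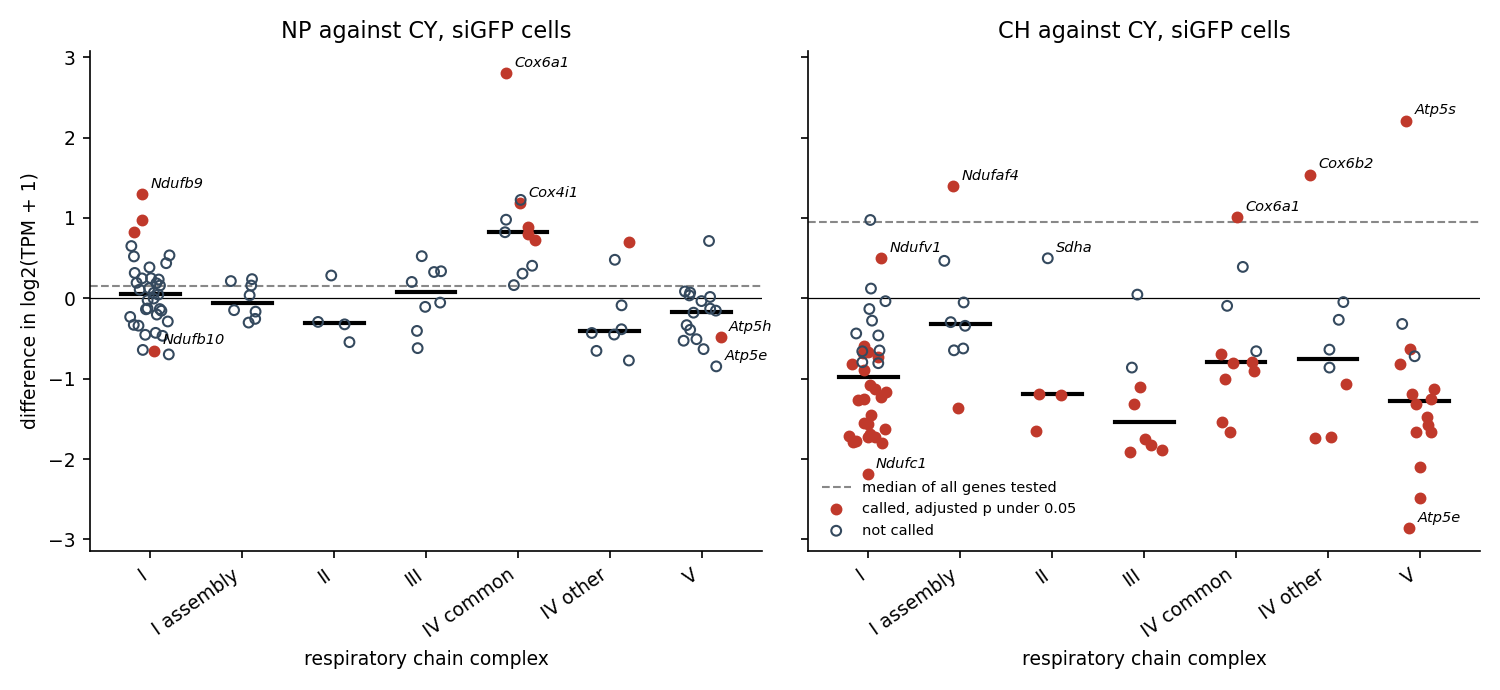
Difference of each of the 91 tested members in siGFP by complex (horizontal axis) in log2(TPM+1) (vertical axis), nucleoplasm minus cytoplasm and chromatin minus cytoplasm in separate panels, with filled points called by limma, black bars for group medians and a dashed line for the median of all genes. Common complex IV subunits lie highest in the nucleoplasm panel (median 0.82), and most members lie below 0 in the chromatin panel (median −0.90).

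The counts of this comparison depended on scaling more than the order of the complexes did. The 9 higher and 2 lower became 11 and 0 after rescaling without mitochondrially encoded genes, 2 and 9 with median-ratio scaling and 3 and 3 with quantile normalization. With these scalings the median of all genes was 0.26, 0.00 and −0.13. Of all genes, 3114 of 20709 were then called higher and 32 lower, 2179 and 809 of 19501, and 1437 and 802 of 20611. With TPM as deposited they were 2543 and 95 of 20611. The 9 called higher kept their direction under all of them, but most lost their call under 2 of them. With median-ratio scaling Cox6a1 and the low Cox6a2 were still called, and Cox4i1, Cox6c, Cox7a2, Cox7c, Ndufa1, Ndufb3 and Ndufb9 were not. With quantile normalization 3 of the 9 were still called, and Cox4i1, Cox6a2, Cox6c, Cox7a2, Cox7c and Ndufb9 were not. Common complex IV subunits were positive in 11 of 11 except with median-ratio scaling (9 of 11, median 0.42). Complex V subunits had a median of 0.02 without mitochondrially encoded genes (8 of 15 positive) and −0.58 with median-ratio scaling. With the replicate number as a block 13 members were higher (23.5% of all genes) and 14 lower (4.74%), and 8 of the 11 common complex IV subunits were among the higher. The block added Ndufa13, Cox6b1, Cox7b and Cox8a to the higher, and Atp5e, Atp5k, Atp5o, Cox4i2, Cox7a1, Cox7a2l, Ndufa11, Ndufb2, Ndufc1, Ndufs6, Ndufv3 and Uqcrfs1 to the lower. Leaving out 1 siGFP library of NP or CY left 2 to 7 higher and 0 or 1 lower: 2 without CY replicate 1, 3 without CY replicate 3 or NP replicate 3, 4 without NP replicate 2, 6 without NP replicate 1 and 7 without CY replicate 2. Leaving out replicate 1 of every group gave 15 and 14, where 3310 and 1125 of 20611 genes were called. Counts of all genes without a single library are not given here.

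A ratio of 2 values of a library is the same under any scaling that multiplies the whole library, which quantile normalization does not. The summed TPM of the 11 common complex IV subunits divided by that of the 15 complex V subunits was chosen after the values were seen, and is given without a test. It was 0.394 to 0.458 in the 9 CY libraries, 0.881 to 1.08 in the 9 NP libraries and 0.512 to 0.775 in the 9 CH libraries, so the fractions did not overlap. The complex IV sum was 2837 to 3178 TPM in CY and 5522 to 7530 TPM in NP, and the complex V sum 6738 to 7741 and 5331 to 7457 TPM. Without Cox6a1, Cox4i1 and Atp5b the ratio was 0.369 to 0.437, 0.725 to 0.969 and 0.515 to 0.717. Within complex IV, the ratio of Cox6a1 to Cox5a, subunit Va, lay between 0.179 and 0.360 for CY, 1.31 and 2.12 for NP, and 1.17 and 1.84 for CH. The ratio of Cox4i1 to Cox5a was 1.22 to 2.67, 2.52 to 3.47 and 3.42 to 5.52, and here neighbouring fractions overlapped.

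**Figure D3:**
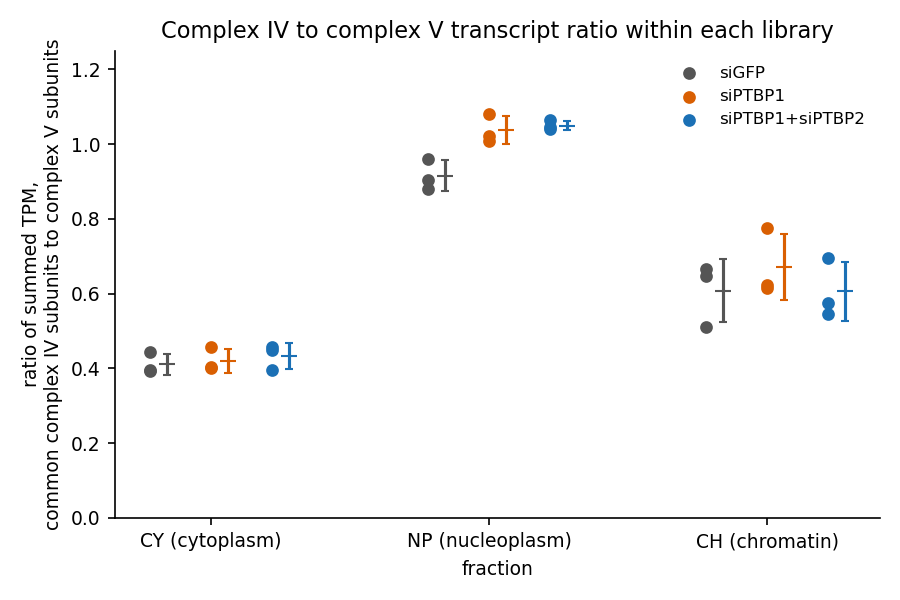
Ratio of the summed TPM of common complex IV subunits to complex V subunits (vertical axis) in each of the 27 libraries by group (horizontal axis), with points for libraries and mean ± SD for the 3 replicates. Cytoplasm lies between 0.394 and 0.458, chromatin between 0.512 and 0.775 and nucleoplasm between 0.881 and 1.08, whatever the siRNA.

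The chromatin comparison was larger and went mostly down. In siGFP, 57 of 91 members were lower in CH than in CY (8.08% of all genes tested) and 5 higher (57.9%), with 29 not called (limma). Of the 57, Cox8c (−1.06) had 5 CY, 3 NP and 0 CH libraries of at least 1 TPM, and never exceeded 1.41 TPM. It passed the filter on low values without CH, so its call is no evidence of a fall. The median of members was −0.90 (from −2.86 to 2.21), against 0.95 for all genes. Of complex V 13 of 16 fell, of complex III 6 of 8 and of complex IV 10 of 19, with Cox8c among the 10. Of complex I 24 of 36 fell, of complex II 3 of 4 and of the assembly factors 1 of 8. With median-ratio scaling the median of members was −1.95 against 0.27 for all genes, and with quantile normalization −1.65 against −0.12. All 57 lower members were still called with the first and 56 with the second, which lost Atp5a1. Of all genes 4540 of 19501 and 6439 of 20611 were lower there.

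The 2 lowest values of CH − CY were those of Atp5e and Atp5k, both of complex V. Atp5e encodes the epsilon subunit of the F1 head (ENSMUSG00000016252, chr2:174461072-174464105, minus strand). It was at 473.37, 434.03 and 425.78 TPM in siGFP CY, 296.92, 202.32 and 249.05 TPM in NP and 90.85, 53.66 and 45.09 TPM in CH. The 3 fractions did not overlap. The difference CH − CY was −2.86 (SE 0.32, adjusted p = 1.37e-07, limma), and NP − CY was −0.85 (adjusted p = 0.0973, with the block 0.00403). Atp5k, a small membrane subunit involved in dimers of the synthase, was at 416.86, 440.64 and 478.93 TPM in CY, 297.66, 258.5 and 306.01 TPM in NP and 99.17, 80.01 and 61.73 TPM in CH. Its fractions lay in the same order without overlap (CH − CY −2.48, SE 0.22, adjusted p = 5.27e-09). Atp5o, which links the stalk to the F1 head, was at 459.61, 469.51 and 433.66 TPM in CY, 341.89, 294.29 and 309.75 TPM in NP and 124.8, 97.77 and 95.33 TPM in CH (CH − CY −2.10, SE 0.23, adjusted p = 7.71e-08). The fractions of Atp5o did not overlap either, and 2 gene models lie on its other strand. Of the subunit c genes, Atp5g1 (−1.67) and Atp5g3 (−1.58) fell further than Atp5g2 (−0.63, adjusted p = 0.0289), a contrast between genes that was not tested.

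Atp5b did not follow them. It was at 1537.42, 1343.98 and 1432.53 TPM in siGFP CY, 1653.69, 1563.17 and 1368.83 TPM in NP and 1612.7, 903.14 and 1046.61 TPM in CH. Chromatin overlapped cytoplasm through replicate 1, and the difference (−0.32) was not called. Atp5s, a distal factor that is not a core subunit, went up. It was at 2.12, 2.12 and 1.49 TPM in CY, 2.65, 8.51 and 2.08 TPM in NP and 6.32, 25.51 and 11.44 TPM in CH (CH − CY 2.21, SE 0.58, adjusted p = 0.00212, limma). In siGFP all chromatin libraries were above all cytoplasmic ones, with replicate 2 the highest, at low levels throughout. NP replicate 2 (8.51 TPM) lay above CH replicate 1 (6.32 TPM). In siPTBP1 the difference CH − CY was 1.04 and not called, and in siPTBP1_PTBP2 it was 1.85 and called.

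In complex III the catalytic Rieske iron-sulfur subunit Uqcrfs1 (−1.89, adjusted p = 9.42e-07, limma) and all 5 small subunits fell in CH. Uqcrq, of the small ones, was at 554.99, 496.24 and 546.56 TPM in siGFP CY, 461.58, 353.75 and 396.14 TPM in NP and 216.92, 133.5 and 95.38 TPM in CH. Its chromatin libraries were all below the rest (−1.91, SE 0.37, adjusted p = 0.000108). The core subunits Uqcrc1 (0.05) and Uqcrc2 (−0.86, adjusted p = 0.162), related to processing peptidases, were not called.

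Complex II showed the same mix. Sdha, the flavoprotein that oxidises succinate, was at 90.15, 129.31 and 107.27 TPM in siGFP CY, 118.34, 132.1 and 145.17 TPM in NP and 128.29, 158.02 and 175.3 TPM in CH. Its chromatin and cytoplasmic libraries overlapped (CH − CY 0.50, adjusted p = 0.252, limma). Sdhb, the iron-sulfur subunit, was at 156.15, 166.72 and 139.1 TPM in CY, 127.52, 121.86 and 118.28 TPM in NP and 78.66, 61.91 and 59.8 TPM in CH. Sdhb fell with no overlap of its 3 fractions (−1.20, adjusted p = 6.20e-05). The membrane anchor Sdhc was at 193.81, 242.7 and 227.34 TPM in CY, 165.39, 139.26 and 148.48 TPM in NP and 94.7, 57.05 and 61.41 TPM in CH, and fell without overlap (−1.66, adjusted p = 0.000206). Sdhd, the other anchor, was at 144.07, 157.03 and 153.38 TPM in CY, 138.61, 104.52 and 129.51 TPM in NP and 91.5, 51.86 and 60.07 TPM in CH. Sdhd fell as well (−1.19, adjusted p = 0.000520), again with no overlap.

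In complex I, 15 of 20 membrane arm and 9 of 16 matrix arm subunits fell. The largest fall was that of the accessory subunit Ndufc1, at 161.02, 170.07 and 159.77 TPM in siGFP CY, 117.79, 109.04 and 88.74 TPM in NP and 26.61, 40.38 and 39.97 TPM in CH. No fraction overlapped another (CH − CY −2.19, SE 0.23, adjusted p = 6.83e-08, limma). Ndufv1, the core subunit that binds NADH and flavin, went the other way, at 193.55, 177.18 and 154.44 TPM in CY, 159.89, 133.21 and 136.1 TPM in NP and 270.34, 228.3 and 242.34 TPM in CH. Its chromatin libraries were above all others (0.50, SE 0.20, adjusted p = 0.0318). Ndufs1, the largest core subunit, was at 0.97 and not called (adjusted p = 0.138, with the block 0.00118). Of the assembly factors Ndufaf8 fell (−1.36), and Ndufaf4 rose: CH held 14.1, 26.98 and 26.38 TPM, CY 5.58, 8.35 and 9.4 TPM, and NP 5.07, 9.03 and 15.43 TPM. NP replicate 3 of Ndufaf4 lay above CH replicate 1, and CY and CH did not overlap (CH − CY 1.39, SE 0.38, adjusted p = 0.00305).

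In complex IV, 7 of 11 common subunits fell and Cox6a1 rose (1.01, SE 0.37, adjusted p = 0.0220, limma), with the narrow overlap given earlier. This call was lost without CH replicate 1 (adjusted p = 0.155), CY replicate 1 (0.0519) or CY replicate 3 (0.0811), and without replicate 1 of every group (0.0561). The testis form Cox6b2 was at 17.09, 23.57 and 17.47 TPM in siGFP CY, 21.71, 42.61 and 21.48 TPM in NP and 38.64, 76.63 and 64.46 TPM in CH. Its chromatin libraries were above all cytoplasmic ones, and NP replicate 2 reached into the chromatin range (CH − CY 1.54, SE 0.34, adjusted p = 0.000538). Testis germ cell markers summed to no more than 16.6 TPM in any library, with Tnp1 at 0 in all 27 and Prm1 at 0 in 26. With the replicate number as a block 8 members were higher in CH (65.4% of all genes) and 69 lower (11.5%). The count of 5 higher members became 3 without CH replicate 1 or CY replicate 3. It became 8 without replicate 1 of every group, where 12051 of 20611 genes were higher, and it was sensitive to scaling. With median-ratio scaling only Atp5s of the 5 was still called, Cox6a1 was at −0.05 and Ndufv1 at −0.57, and with quantile normalization none of the 5 was. Ndufv1 lost its call without CH replicate 1 (adjusted p = 0.0951), CH replicate 3 (0.0578), CY replicate 2 (0.0568) or CY replicate 3 (0.117).

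**Figure D4:**
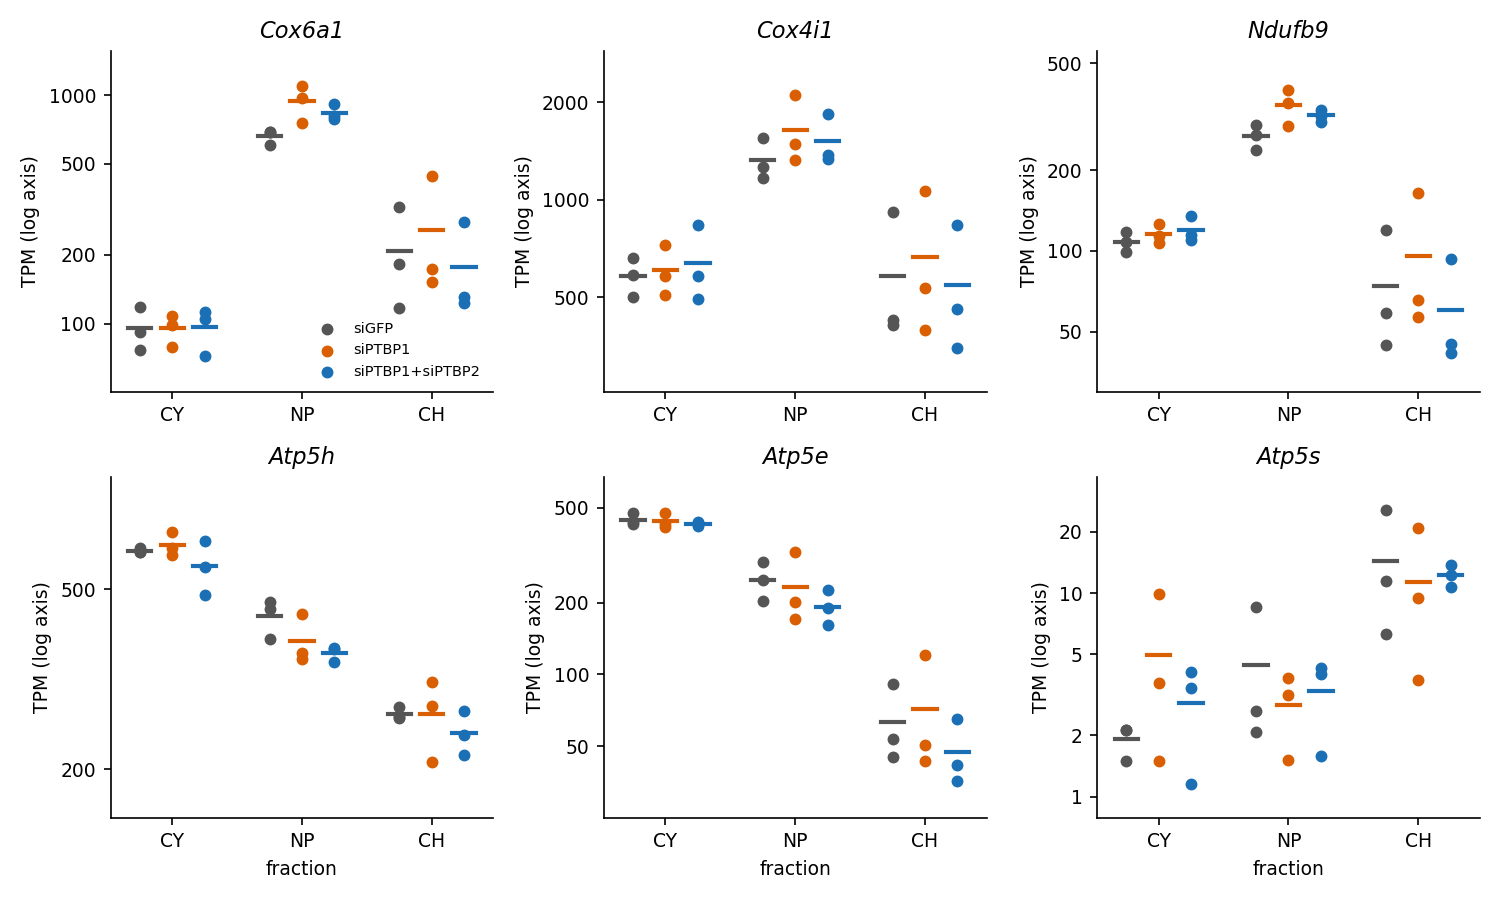
TPM on a log axis (vertical) of Cox6a1, Cox4i1, Ndufb9, Atp5h, Atp5e and Atp5s in each of the 27 libraries by fraction (horizontal), coloured by siRNA, with bars for means. Cox6a1, Cox4i1 and Ndufb9 are highest in nucleoplasm, Atp5h and Atp5e step down from cytoplasm to chromatin, and Atp5s is highest in chromatin.

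Members are short genes. Their median coding length was 432 nt, against 1368 nt for protein-coding genes tested, their median exon number 4 against 9, and their median transcript GC content 50.55% against 50.83%. Among all protein-coding genes, short ones were also lower in CH: 42.8% of the 325 genes with a coding length up to 300 nt and 33.2% of the 1624 between 300 and 600 nt were called lower. In the same classes 75.0% of 24 and 69.8% of 43 members were lower. Between 600 and 1200 nt 50.0% of 14 members were lower, against 13.0% of 4138 genes, and above 1200 nt 20.0% of 10, against 1.5% of 8116. The medians of CH − CY were −1.08, −1.12, −0.92 and 0.01 for members and −0.50, −0.25, 0.44 and 1.13 for all protein-coding genes in these classes. Across genes, Spearman's rho of coding length with CH − CY was 0.31 over the 91 members and 0.46 over 14203 genes, where all points share the same libraries.

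Chromatin against nucleoplasm, which shares its libraries with the other fraction comparisons, gave 4 members higher (46.0% of all genes tested) and 63 lower (5.48%) in siGFP by limma. The median was −1.15, against 0.68 for all genes. The higher members were Atp5s (1.50, adjusted p = 0.0350), Ndufaf4 (1.18, adjusted p = 0.0134), Cox6b2 (1.06, adjusted p = 0.0139) and Ndufv1 (0.78, adjusted p = 0.00224). The lowest values were those of Atp5e (−2.01), Ndufb9 (−1.95, adjusted p = 7.96e-05), Ndufa4 (−1.95), Ndufb6 (−1.88) and Atp5k (−1.85). Cox6a1 fell by 1.79 (adjusted p = 0.000419). None of the 4 higher calls held with median-ratio scaling or quantile normalization, where 5390 of 19501 and 3954 of 20611 genes were higher. The count of higher members fell to 1 without CH replicate 2 or NP replicate 1 and to 2 without CH replicate 3 or NP replicate 3.

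The same fractions in the knockdowns use other libraries, within the same fit. Members' deviations from group means correlated between libraries with the same replicate number (median r = 0.723). Calls shared by the 3 treatments are therefore not independent of each other. In siPTBP1, 12 members were higher in NP than in CY (13.6% of all genes tested) and 7 lower (3.88%), and in siPTBP1_PTBP2 9 were higher (15.4%) and 9 lower (4.66%), by limma. The 12 include Cox6a2, which passed the filter on low values through NP libraries alone. With the block the counts higher and lower were 18 (22.2%) and 19 (13.5%) in siPTBP1, and 16 (25.7%) and 22 (12.5%) in siPTBP1_PTBP2. Without mitochondrially encoded genes the splits were 16 higher and 4 lower in siPTBP1 and 16 and 3 in siPTBP1_PTBP2. All genes then split into 3429 and 196, and 4099 and 254, of 20709. With median-ratio scaling members split into 5 and 6, and 4 and 14, and all genes into 3000 and 1360, and 3203 and 2429, of 19501. Quantile normalization gave 10 and 5, and 9 and 5, where all genes gave 2078 and 1875, and 2235 and 2343, of 20611. In siPTBP1 the 12 higher members became 4 without NP replicate 3, 5 without CY replicate 1 or CY replicate 3, 6 without NP replicate 2 and 7 without NP replicate 1, and the 7 lower became 4 without NP replicate 2. In siPTBP1_PTBP2 the 9 lower members became 3 without NP replicate 2 and 5 without NP replicate 3 or CY replicate 2. Without replicate 1 of every group the counts were 18 and 22 in siPTBP1 and 17 and 23 in siPTBP1_PTBP2. All genes then gave 3516 and 3018, and 3697 and 3042, of 20611. In all 3 treatments 8 members were called higher in NP (Cox6a1, Cox4i1, Cox7a2, Cox6c, Cox7c, Ndufb9, Ndufb3 and Ndufa1) (10.6% of all genes) and 2 lower (Ndufb10 and Atp5h, 0.393%). Cox6a1 differed by 3.29 in siPTBP1 and 3.13 in siPTBP1_PTBP2, and Cox4i1 by 1.42 and 1.27. From CY to CH, 53 members fell (8.82%) and 4 rose (57.8%) in siPTBP1, and 61 fell (9.24%) and 6 rose (60.4%) in siPTBP1_PTBP2. Cox8c was among the 53 and the 61, and Cox6a2 among the 61. Neither reached 1 TPM in any CH library. With the block, 10 members rose in siPTBP1 (65.2%), and without replicate 1 of every group 8 did, as did 12067 of 20611 genes. In all 3 treatments 49 members, Cox8c among them, were lower in CH (6.57% of all genes), and Cox6b2, Ndufaf4 and Ndufv1 were higher (52.4%).

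The knockdown comparisons ask whether siRNA against Ptbp1, or against Ptbp1 and Ptbp2, changed the members within a fraction. No member was called in any of them by limma: 0 of 91 in siPTBP1 against siGFP in CY, NP or CH, where 0.228%, 0.160% and 0.398% of all genes were called, and 0 of 91 in siPTBP1_PTBP2 against siGFP, where 0.243%, 0.155% and 0.427% were. At an unadjusted p under 0.05 there were 0, 0 and 4 members for siPTBP1 (4.41%, 4.88% and 6.65% of all genes) and 0, 1 and 2 for siPTBP1_PTBP2 (4.96%, 5.24% and 6.94%). With the replicate block these were 5, 2 and 9 (11.7%, 12.9% and 14.5%), and 6, 2 and 4 (13.8%, 14.3% and 14.1%). Both sets of comparisons share the siGFP libraries. All differences lay between −0.89 and 0.86. The median of members was 0.02, 0.01 and 0.11 for siPTBP1 and −0.04, −0.08 and −0.18 for siPTBP1_PTBP2, where all genes were at 0.06, −0.01 and 0.09, and at 0.00, −0.01 and 0.07. In siPTBP1_PTBP2 against siGFP in CH, 37 members were lower (13.7% of all genes) and 4 higher in 3 of 3 pairs of libraries with the same replicate number. This was the most one-sided of the 6 comparisons. In CY and NP 18 and 23 were lower, and 13 and 14 higher. For siPTBP1 13, 20 and 7 were lower, and 18, 22 and 15 higher (CY, NP and CH). Shares of all genes are given here only for the 37.

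How large a change could have been missed is set by the spread. The median 95% interval of a member reached 0.62 (log2) to either side, and 0.43 with the block. The interval lay wholly within a 2-fold change (−1 to 1) for 77, 70 and 71 of 91 members in siPTBP1 (CY, NP and CH) and for 69, 71 and 72 in siPTBP1_PTBP2. Ndufa5 in siPTBP1 CH had the smallest p in that comparison: 24.36, 26.26 and 27.16 TPM in siGFP and 65.05, 31.88 and 53.05 TPM in siPTBP1 (0.86, 95% interval 0.23 to 1.50, adjusted p = 0.374, limma). All its siPTBP1 libraries were above the control. Ndufb10 in NP was at 110.29, 96.48 and 104.19 TPM in siGFP and 69.28, 69.92 and 78.66 TPM in siPTBP1_PTBP2, without overlap (−0.51, −0.87 to −0.15, adjusted p = 0.549). Ndufb4, an accessory subunit of the membrane arm, was at 14.32, 15.46 and 11.96 TPM in siGFP CH and 10.61, 7.32 and 7.95 TPM in siPTBP1_PTBP2 CH, also without overlap. Its difference was −0.64 (−1.05 to −0.23, adjusted p = 0.215), and with the replicate block it was called lower (adjusted p = 0.0383), where 0.475% of all genes were. Ndufc1 was at 26.61, 40.38 and 39.97 TPM in siGFP CH and 31.88, 22.85 and 21.74 TPM in siPTBP1_PTBP2 CH. Its replicate 1 went up where the other replicates went down, and without replicate 1 it was called lower (−0.82, SE 0.12, adjusted p = 0.00699). The smallest p in the remaining comparisons belonged to Ndufab1 in CY (0.31 in siPTBP1 and 0.29 in siPTBP1_PTBP2) and to Cox6b2 in siPTBP1 NP (−0.62), all with adjusted p = 1.

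**Figure D5:**
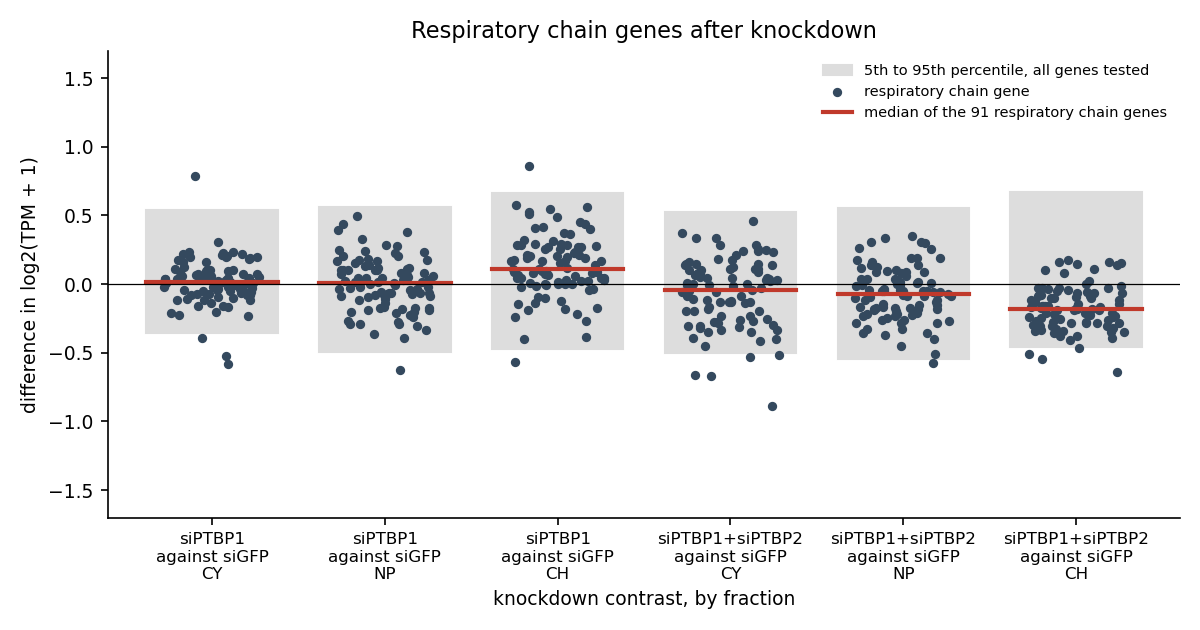
Differences of the 91 members in log2(TPM+1) (vertical axis) in the 6 comparisons of a knockdown with siGFP (horizontal axis), with grey bands from the 5th to the 95th percentile of all genes tested and red lines at the members' medians. No member was called in any comparison, and the medians lie between −0.18 and 0.11.

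Against siPTBP1, siPTBP1_PTBP2 also gave 0 of 91 members called in CY, NP and CH (limma), where 0%, 0.00485% and 0.107% of all genes were called. At an unadjusted p under 0.05 there were 0, 0 and 15 members (0.713%, 0.733% and 3.21% of all genes), and 2, 0 and 23 with the block (3.98%, 1.31% and 5.07%). The median of members was −0.03, −0.07 and −0.28, where all genes were at −0.04, −0.01 and −0.01. In CH, 8 of 91 members were positive, and 54 were lower in siPTBP1_PTBP2 in 3 of 3 pairs of libraries with the same replicate number (14.0% of all genes). In CY and NP 17 and 18 were lower in 3 of 3 pairs. Higher in 3 of 3 pairs were 13, 4 and 3 (CY, NP and CH). Ndufc1 came nearest to a call, at 77.62, 41.05 and 39.84 TPM in siPTBP1 CH and 31.88, 22.85 and 21.74 TPM in siPTBP1_PTBP2 CH, without overlap (−0.97, −1.46 to −0.49, adjusted p = 0.196). Replicate 1 was the highest in both groups, and without replicate 1 Ndufc1 was called (−0.83, SE 0.12, adjusted p = 0.0113). Ndufb6, of the same arm, was called without siPTBP1 CH replicate 2 (−1.12, SE 0.24, adjusted p = 0.0412). The median in CH without 1 replicate ranged from −0.48 to −0.09. In CY the smallest p was that of Ndufa10 (−0.52) and in NP that of Ndufb10 (−0.21), both with adjusted p = 1.

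Whether a knockdown changed the difference between fractions was tested as an interaction. No member was called (limma), with 0.00485% and 0.0437% of all genes called for siPTBP1 (NP − CY and CH − CY) and 0.00485% and 0.0582% for siPTBP1_PTBP2. At an unadjusted p under 0.05 there was no member in any of the 4 (1.04%, 2.58%, 1.15% and 3.08% of all genes), and 1, 3, 0 and 2 with the block (4.11%, 5.99%, 4.59% and 8.01%). The members with the smallest p were Atp5s (−1.15), Ndufa3 (0.64), Cox6a2 (−0.39 and −0.56), all with adjusted p = 1.

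Other genes of the pathway are given for siGFP as counts among those tested, with limma's calls, to be read against the 12.3% of all genes that were higher and 0.461% that were lower in NP, and the 57.9% and 8.08% in CH. Counts with the block, here and in the next paragraph, are to be read against 23.5% and 4.74% in NP, and 65.4% and 11.5% in CH. Electron carriers move electrons between the complexes. Of 5 none was called in NP (1 lower with the replicate block), and Etfb fell in CH (−1.14), where the block called all 5, 2 higher and 3 lower. Of 35 assembly factors of complexes II to V, Coa4 fell in NP (−0.71), and with the block 3 were higher and 3 lower. In CH 4 of them rose, led by Ttc19 (2.26) and Coa5 (1.23), and 12 fell, led by Uqcc2 (−2.09) and Sdhaf4 (−1.94), where the block gave 7 and 18. Of 7 assembly factors of complex I outside the Ndufaf names, none was called in NP (1 higher and 1 lower with the block), 3 rose in CH (Foxred1 at 1.98 and Acad9 at 1.17 among them) and Ecsit fell (−0.75). Of 9 transcription factors of respiratory genes, Polrmt, the mitochondrial RNA polymerase, rose in NP (1.56), and with the block 2 did. In CH 4 rose (6 with the block): Polrmt (2.90), Gabpa (2.26), which overlaps Atp5j on the other strand, Pprc1 and Esrra. Of the citrate cycle genes, Dld (1.56) was among those that rose in CH, and Suclg1 (−1.19) and Mdh2 (−0.91) fell.

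Genes of mitochondrial protein import and ribosomes fell in CH as well. Of 22 import genes 13 fell in CH, led by Timm8b (−2.38) and Tomm6 (−2.06), and Timm44 (1.16) and Timm50 (0.71) rose (4 with the block). In NP none of the 22 was called, and 6 were lower with the block. Mitochondrial ribosomal protein genes fell in 55 of 78 and rose in 3 in CH (median −1.08; 6 rose with the block), and cytosolic ribosomal protein genes fell in 71 of 81 and rose in 3 (median −1.75; 5 with the block). In NP, 2 of the 78 and 8 of the 81 were lower and none higher, and with the block 20 and 33 were lower and 2 and 2 higher. All 13 mRNAs encoded by mitochondrial DNA rose in NP (median 7.70), and 12 did in CH (median 3.68).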

How the data were processed

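Polyadenylated RNA libraries were made with a stranded kit, per the labels' protocols. TPM per gene were deposited by the authors. STAR, kallisto and the build mm10 are named in the submitters' processing notes, and which tool gave the TPM, their versions and the annotation are not given in the sources used here. TPM keep no read depth, so depth is unknown and counting error could not be given. Strand use in counting is likewise not given there.

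Values were analysed as log2(TPM + 1) in limma 3.58.1 (R 4.3.3) with empirical Bayes moderation (trend and robust), 9 group means and 18 residual degrees of freedom, over the 20611 genes with at least 1 TPM in at least 3 libraries. Tests were two-sided, and a gene was called at a Benjamini-Hochberg adjusted p under 0.05 over all genes tested. A difference is on the log2(TPM + 1) scale, which understates changes of low genes. The script was tested on simulated data. The replicate numbers come from the labels, which speak of biological replicates. Deviations from group means correlated in all 108 pairs of libraries with the same number (lowest r = 0.130, median 0.365 over all genes tested). Over the 91 members the correlation was stronger (lowest r = 0.417, median 0.723). A fit with the number as a block is therefore given beside counts it moves by over 1.5 times and named members whose call it changes. If replicates were not separate cultures, p-values reflect only the variation among these libraries.

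Named with values were the 5 highest and 5 lowest called members of at least 1 TPM in each siGFP fraction comparison, the member with the smallest p in each knockdown comparison, the highest and lowest member of each complex, the paralogue sets and complex II. Members called under a left-out library, Cox7b, Cox8a and the other common subunits of complex IV, Atp5b, Ndufs1 and the complex IV to V ratio were added after values were seen. The members and lists were chosen with earlier results of these data known. Gene positions, overlaps and coding sequences come from GENCODE M21 (GRCm38), in which all 92 members had the same symbol, and promoters from a RefSeq table (GRCm38.p6). Alternatives were a pseudocount of 0.1, no filter, rescaling without mitochondrially encoded genes, median-ratio scaling, quantile normalization, only the groups compared, the block, and leaving out libraries. A result for 1 gene of the citrate cycle list is not reported here.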

Additional observations from a re-analysis of the deposited data

How the results depend on the processing

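With a pseudocount of 0.1 no count of members moved by over 1.5 times and no median by more than the spread between replicates. Without the filter, members higher in NP than CY numbered 5 in siGFP and 6 in siPTBP1, and 1 was lower in siGFP. Of 38279 genes these were 2238, 2523 and 94. With the replicate block, which rests on the pairing of replicate numbers, 14, 19 and 22 members were lower in NP than CY (siGFP, siPTBP1, siPTBP1_PTBP2) and 16 higher in siPTBP1_PTBP2, 8 and 10 were higher in CH than CY (siGFP, siPTBP1), and 1 was called in siPTBP1_PTBP2 against siGFP in CH. It moved no other count of members by over 1.5 times. It added 16 calls in NP against CY, 15 in CH against CY and 11 in CH against NP in siGFP and ended none. Without mitochondrially encoded genes, 0, 4 and 3 members were lower in NP than CY and 16 higher in siPTBP1_PTBP2. The medians NP − CY were then 0.22, 0.19 and 0.39, CH − NP in siGFP was −1.33, siPTBP1_PTBP2 against siGFP in NP was 0.022, and the change of its NP − CY difference 0.11. With median-ratio scaling 2, 5 and 4 members were higher in NP than CY, 9 (siGFP) and 14 (siPTBP1_PTBP2) lower, and the medians were −0.37, −0.15 and −0.20. From CY to CH 1, 1 and 0 were higher with medians of −1.95, −1.85 and −2.31, and against NP 0 with a median of −1.80. Of 19501 genes 7139, 7316 and 7322 were higher in CH than CY, and 5390 higher than in NP. Cox6a1 (−0.050) and Ndufv1 (−0.57) reversed in CH − CY. The cause was not tested. The medians of siPTBP1 against siGFP in CY (−0.16), of siPTBP1_PTBP2 against siGFP in NP (0.0023) and against siPTBP1 in CY (0.17), and of the siPTBP1 change of NP − CY (0.22) also moved. With quantile normalization 3 members in siGFP were higher in NP than CY and 5 in siPTBP1_PTBP2 lower. From CY to CH 1, 1 and 0 were then higher with medians of −1.65, −1.48 and −1.80, and against NP 0 with a median of −1.75. Of 20611 genes 4917, 4963 and 5242 were higher in CH than CY, and 3954 higher than in NP. The medians of siPTBP1 against siGFP in CY (−0.069), siPTBP1_PTBP2 against siGFP in NP (0.0087) and the changes of NP − CY (0.10 and 0.12) moved. With only the groups compared, 8 members in siGFP and 3 in siPTBP1_PTBP2 were lower in NP than CY (202 and 97 of 20611 genes). Higher were 2 (CH against NP, siGFP) and 3 (CH against CY, siPTBP1_PTBP2), against 8459 and 10704 of 20611 genes. Leaving out libraries, members higher in NP than CY ranged from 2 to 15, 4 to 18 and 6 to 17, and lower from 0 to 14, 4 to 22 and 3 to 23. Members higher in CH than CY ranged from 3 to 8 in siGFP and in siPTBP1, and higher in CH than NP from 1 to 6. Members called in siPTBP1_PTBP2 in CH ranged from 0 to 1 against siGFP and against siPTBP1. Medians ranged from −0.078 to −0.0051 for NP − CY in siPTBP1 (0.0011 with all libraries), from −0.079 to 0.028 and −0.086 to −0.014 for siPTBP1_PTBP2 against siGFP in CY and NP, and from −0.48 to −0.086 against siPTBP1 in CH. Those of the changes ranged from −0.14 to 0.28 (siPTBP1, CH − CY), −0.092 to 0.043 and −0.31 to 0.0038 (siPTBP1_PTBP2, NP − CY and CH − CY). The 57 members lower in CH than CY in siGFP stayed within 1.5 times under every setting tried. Depth is unknown, so its limits could not be computed.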
